A study of Mus musculus with 60 samples.

Results

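The genes described here make cholesterol and control its making in the prefrontal cortex of young mice. They are 29 genes out of the 18088 in the table: 20 enzymes, 6 regulators and 3 genes of sterol transport. They were chosen by name from the pathway, in the order of its steps, and each was found through its Ensembl identifier in the GENCODE M21 annotation. All 29 had enough signal to be tested, and the lowest count of any of them in a library was 214 reads.

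All mice were C57BL/6J. Het mice were heterozygous for C456Y, a missense change in Grin2b, the gene for a subunit of NMDA receptors (GluN2B), and WT mice had no such allele. Drug or vehicle reached the pups in their mother's milk from postnatal day 3 to 24, and tissue was taken on day 25. Fluoxetine inhibits serotonin reuptake, and lithium is a mood stabiliser that inhibits glycogen synthase kinase 3. The groups were Het with fluoxetine, Het with lithium, Het with vehicle, WT with fluoxetine, WT with lithium and WT with vehicle, each with 5 male and 5 female libraries, 60 in all. The labels give no dose and do not say whether replicates are separate animals or litters, so p-values measure the spread between these samples. Because the drug came through the mother, differences between litters and the effect of a drug cannot be told apart in any comparison of drug with vehicle or of the drugs.

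Neurons and glia make nearly all of the brain's cholesterol locally, because lipoprotein cholesterol does not cross the blood-brain barrier, and the demand is high in the weeks when myelin forms. Acetyl-CoA is turned into mevalonate and then into isoprenoid units, these are joined into squalene, and squalene is closed into a ring that a chain of endoplasmic reticulum enzymes trims into cholesterol. The transcription factor SREBP2, encoded by Srebf2, turns the enzyme genes on when sterols in the endoplasmic reticulum are low. Scap carries SREBP to the Golgi, where the proteases encoded by Mbtps1 and Mbtps2 release the active factor, and the Insig proteins hold Scap back when sterols are high.

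SREBP2 binds sterol response elements in the promoters of these genes together with NF-Y, a factor that binds CCAAT boxes. RefSeq promoter windows on GRCm38.p6, from 250 bases before to 50 after the start, were at hand for 24 of the 29 genes, and none for Fdps, Fdft1, Sqle, Stard4 and Npc1. The letters CCAAT, on either strand, stood in a window of 20 of the 24 genes, against 41.1% of 27025 genes with a window. The letters TCACNCCAC, a form of the sterol response element searched on both strands, stood in that of 1, Hmgcs1, against 1.44% of genes. These matches are a description of letters and say nothing of binding. The stretches below are shown because they belong to 4 genes that the results turn on, an early enzyme, a later mevalonate enzyme, a sterol ring enzyme and the regulator. Each is written on its gene's strand. Capitals mark the sterol response element in the first stretch and CCAAT, or ATTGG where the box lies on the other strand, in the others.
Hmgcs1 sterol response element, chr13:119690174-119690262, plus strand: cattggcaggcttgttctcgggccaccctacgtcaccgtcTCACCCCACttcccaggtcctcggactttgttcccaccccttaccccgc
Hmgcs1 CCAAT box, chr13:119690266-119690350, plus strand: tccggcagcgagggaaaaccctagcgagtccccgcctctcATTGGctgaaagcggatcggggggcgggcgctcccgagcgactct
Mvd, chr8:122443423-122443489, minus strand: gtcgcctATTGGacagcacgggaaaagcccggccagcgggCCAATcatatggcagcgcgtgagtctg
Ebp, chrX:8193523-8193607, minus strand: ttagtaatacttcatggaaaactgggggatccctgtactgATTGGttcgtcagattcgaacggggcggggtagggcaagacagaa
Srebf2, chr15:82147094-82147178, plus strand: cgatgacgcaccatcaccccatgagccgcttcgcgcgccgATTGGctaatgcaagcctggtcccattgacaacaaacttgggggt

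Values are normalised read counts, that is, read counts divided by 1 size factor per library, and the libraries held 23901635 to 37769417 reads. A gene is called when limma gave an adjusted p below 0.05 over the 17810 genes tested, and fold changes were computed on log2(value + 1). Every list of cell type markers, from cortical excitatory neurons to glia and vessel cells, had reads for all of its genes in every group. Libraries differed in how expression followed the GC content of the genes. Across 12438 genes, which are not independent replicates, the correlation of a library's deviations with GC content lay between -0.52 and -0.19 in the 10 Het fluoxetine libraries, and between -0.02 and 0.47 in the 10 WT fluoxetine libraries. In WT lithium it reached -0.78, in male replicate 5, and in WT vehicle -0.59, in female replicate 2. Values after a correction for GC content are therefore given beside results that move with it. A set of 10 libraries, 9 of Het fluoxetine and WT vehicle female replicate 2, was also low in 16 pseudogenes. These pseudogenes were picked because they were called and differed more than 4-fold between Het and WT on fluoxetine. Values with a model term for that set, the library term, are given for Het fluoxetine. The term follows the Het fluoxetine group by construction, so a loss of calls with it in comparisons that hold this group was largely fixed in advance.

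Levels per kilobase of longest transcript in WT vehicle libraries spanned a wide range along the pathway. Hmgcs1, the enzyme that makes HMG-CoA, was the most abundant at 3208 ± 285 normalised read counts per kilobase (SD, n = 10), and Srebf2 came next at 1427 ± 85.2. Msmo1, Pmvk, Insig1 and Idi1 followed at 803 ± 93.1, 745 ± 61.5, 712 ± 42.2 and 671 ± 92.9, and their levels overlapped within these SDs. The lowest were Abca1 at 118 ± 22.3 and Lbr at 81.8 ± 9.1; Lbr encodes a nuclear envelope protein that is also a sterol reductase.

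Taken over the enzymes of the pathway together, libraries from fluoxetine-exposed mice stood below those of vehicle mice. For each library, the median log2 deviation of the 20 enzymes from the WT vehicle mean of the same sex was taken. It lay between -0.25 and -0.10 in Het fluoxetine, with a median of -0.20, and between -0.25 and -0.12 in WT fluoxetine, with a median of -0.17. In Het lithium the median was -0.11, in WT lithium -0.10, in Het vehicle -0.04 and in WT vehicle -0.01. Every WT fluoxetine library lay below every WT vehicle library, whose range was -0.08 to 0.06. Het fluoxetine overlapped with Het vehicle, whose range was -0.16 to 0.05. All groups share the WT vehicle libraries as the zero of this scale.

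**Figure D1:**
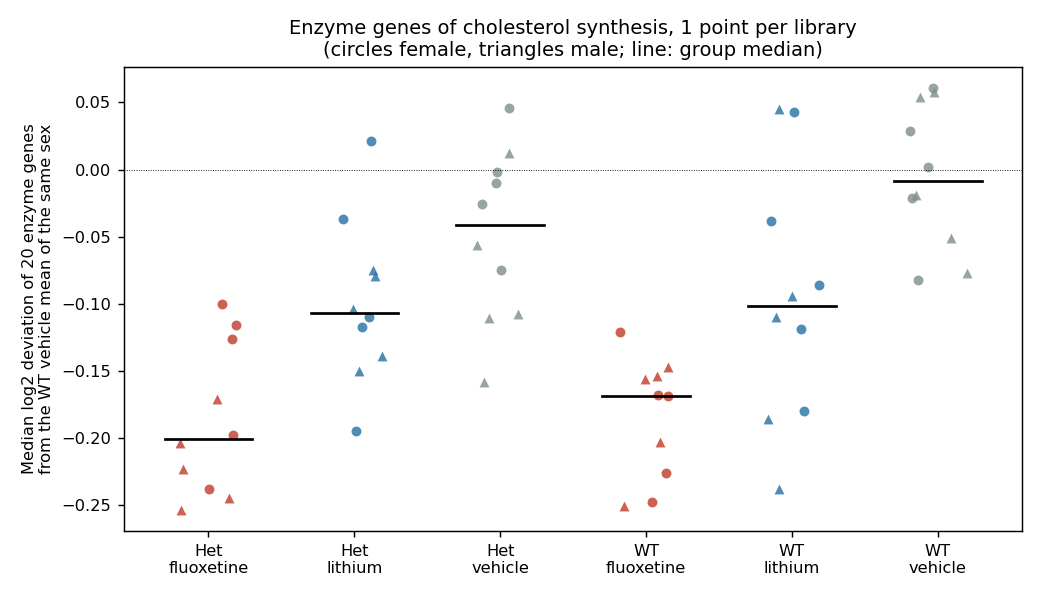
Median log2 deviation of the 20 pathway enzymes from the WT vehicle mean of the same sex (vertical axis), 1 point per library, for the 6 groups of genotype and drug; circles are female, triangles male, and the line is the group median. The WT fluoxetine libraries, at -0.25 to -0.12, all lie below the WT vehicle libraries, at -0.08 to 0.06, and the lithium groups spread over both ranges.

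In WT mice given fluoxetine, RNA of genes across the pathway fell, from its early steps to the final reductase. Of the 29 genes 17 were called lower and 0 higher, which is 58.6% of them, against 4.08% of all tested genes called lower, 4.35% higher and 8.43% in either direction. The median log2 fold over the 29 genes was -0.15, and 24 lay below 0, while the median over all genes was 0. The calls covered 6 of 8 mevalonate enzymes, 1 of 3 squalene enzymes, 7 of 9 sterol ring enzymes, 2 of 6 regulators and 1 of 3 transport genes. In bulk tissue, fewer cells of a type and less RNA per cell cannot be told apart.

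In the mevalonate arm, Idi1, which isomerises the isoprenoid unit, had the largest change in WT fluoxetine. It lies on chromosome 13 at 8885501 to 8892451 (GRCm38, plus strand). It ran from 1282 to 1859 with a median of 1557 in WT fluoxetine libraries, against 1754 to 2777 with a median of 1983 in WT vehicle libraries (n = 10 each). Only the top of the fluoxetine range reached into the vehicle range, and the fitted log2 fold of -0.41 (SE 0.068) corresponds to 75.3% of vehicle. Mvd, which removes carbon dioxide from mevalonate diphosphate, ran from 435.2 to 604.9 with a median of 519 in WT fluoxetine, against 555.2 to 775.9 with a median of 638 in WT vehicle. Its log2 fold was -0.30 (SE 0.064, adjusted p = 0.0013). All 10 WT fluoxetine libraries lay below the WT vehicle mean of their sex, and this held for both genes.

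The other called mevalonate genes moved less. Hmgcs1 ran from 8671 to 11981 with a median of 9219 in WT fluoxetine, against 10117 to 13544 with a median of 10953 in WT vehicle, a log2 fold of -0.22 (SE 0.066, adjusted p = 0.0226). The highest value of each group came from a single female library, replicate 5 in fluoxetine and replicate 2 in vehicle. With the library term, whose set holds the vehicle one, Hmgcs1 was at -0.21 (adjusted p = 0.0372). Fdps, which joins isoprenoid units into farnesyl diphosphate, was at -0.21, Acat2, a cytosolic thiolase at the pathway's start, at -0.18, and the kinase gene Pmvk at -0.18, called in 13 of the 20 fits that left out 1 library of these groups. The other kinase, Mvk, was at -0.15 with an adjusted p of 0.172. Ggps1, which makes geranylgeranyl diphosphate on a side branch, was at -0.02 (SE 0.059, adjusted p = 0.912).

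Among the squalene enzymes, Sqle stood alone. Sqle encodes squalene epoxidase, the first oxygen-using step. Its values were 1691 to 1912 with a median of 1735 in WT fluoxetine, against 1891 to 2311 with a median of 2080 in WT vehicle, and the ranges overlapped only at their edges. The genes on either side of it, Fdft1 for squalene synthase and Lss for lanosterol synthase, were at -0.13 (adjusted p = 0.145) and 0.05 (adjusted p = 0.467). Lss had 7 of 10 fluoxetine libraries above the vehicle mean of their sex.

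Most sterol ring enzymes fell in WT fluoxetine. Cyp51, which removes the first methyl group of lanosterol, ran from 1656 to 2244 with a median of 1936 in WT fluoxetine, against 2137 to 2668 with a median of 2340 in WT vehicle (log2 fold -0.27, SE 0.054, adjusted p = 0.000449). Msmo1, the methyl sterol oxidase, was at -0.27, Hsd17b7, the ketosteroid reductase, at -0.23 and Nsdhl, the sterol decarboxylase, at -0.15. These 4 genes encode enzymes of the steps that take off the methyl groups of the ring. Sc5d, a desaturase, was at -0.23, Ebp, the isomerase, at -0.18, and Dhcr7, the last reductase, at -0.16. Dhcr7 had values of 944.6 to 1081 with a median of 1005 in WT fluoxetine, against 1013 to 1198 with a median of 1151 in WT vehicle. Tm7sf2 and Lbr, which encode alternative reductases for the step after Cyp51, were not called, at -0.05 (adjusted p = 0.592) and 0.05 (adjusted p = 0.697).

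Of the regulators, Srebf2 and Insig2 were called lower in WT fluoxetine, and the rest were not. Srebf2 ran from 5874 to 7034 with a median of 6565 in WT fluoxetine, against 6251 to 7884 with a median of 7259 in WT vehicle, a log2 fold of -0.13 (SE 0.037, adjusted p = 0.0138). The ranges overlapped widely, yet all 10 fluoxetine libraries lay below the vehicle mean of their sex. Insig2, a sterol-sensing anchor of Scap, was at -0.14 (adjusted p = 0.00669), and its partner Insig1, itself a target of SREBP2, at -0.12 (adjusted p = 0.0608). Srebf1, which encodes the SREBP1 forms linked to fatty acid genes, was at 0.00 (SE 0.113), Scap at 0.05 and the protease gene Mbtps1 at 0.09, with adjusted p between 0.209 and 0.992.

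Of the transport genes only Stard4, which carries sterol between membranes and is a target of SREBP2, was called. It ran from 685.6 to 894.4 with a median of 767.1 in WT fluoxetine, against 872.8 to 1099 with a median of 940.6 in WT vehicle. The log2 fold was -0.31 (SE 0.051, adjusted p = 2.58e-05), and the ranges met only at their ends. The late endosomal exporter Npc1 and the efflux pump Abca1, which the sterol receptor LXR turns on, were at -0.05 (adjusted p = 0.795) and -0.07 (adjusted p = 0.766).

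**Figure D2:**
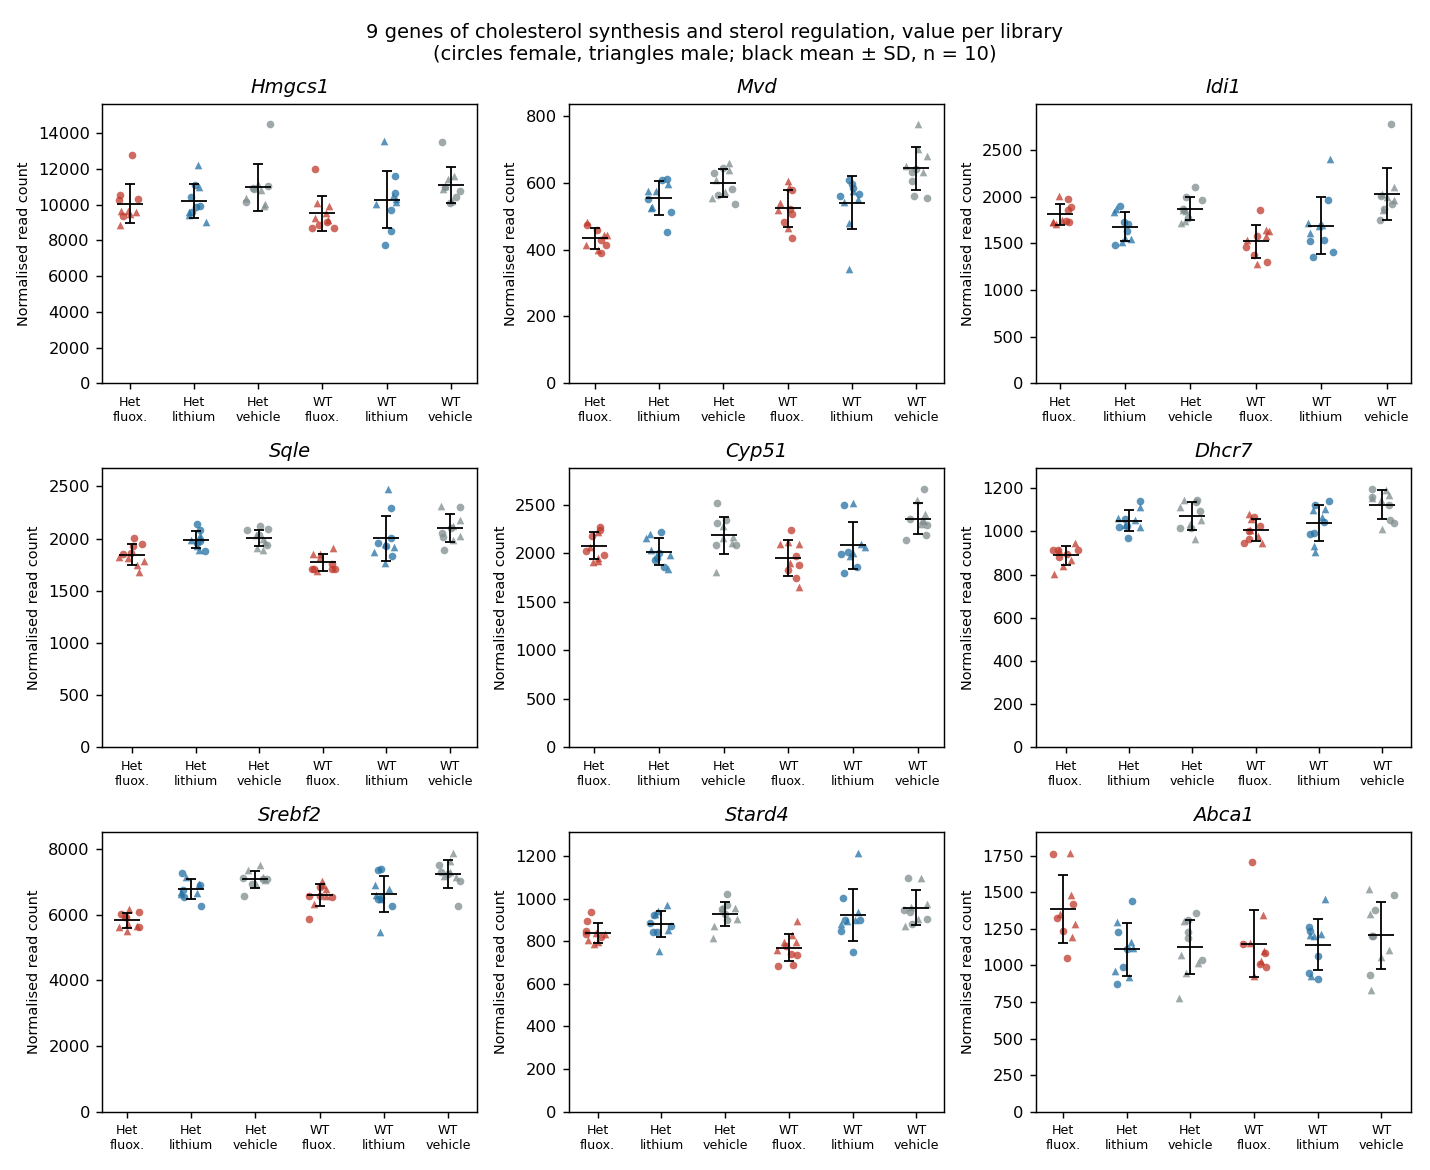
Normalised read counts (vertical axes, 1 panel per gene) of Hmgcs1, Mvd, Idi1, Sqle, Cyp51, Dhcr7, Srebf2, Stard4 and Abca1 in the 6 groups of genotype and drug, 1 point per library (circles female, triangles male), with the mean ± SD in black (n = 10). Idi1 has a median of 1557 in WT fluoxetine and 1983 in WT vehicle, and Mvd and Srebf2 are lowest in Het fluoxetine, with medians of 435.7 and 5824. The values are not corrected for GC content. After the GC correction limma called neither gene for Het against WT on fluoxetine, and the log2 fold of Srebf2 was 0.038.

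The WT fluoxetine calls moved little with processing. edgeR on the recovered reads called 18 of the 29 lower, when it called 4.32% of all genes lower. The GC correction gave 19 lower (7.82% of all genes) and the library term 17 (4.2% of all genes), and leaving out 1 library at a time gave 14 to 18. Of these groups the term's set holds only WT vehicle female replicate 2, so a nearly unchanged count with it was largely fixed in advance. In no gene were all 10 fluoxetine values below all 10 vehicle values, a pattern seen in 0.253% of tested genes. Of the cell type markers, 4 of 10 endothelial genes were called lower, with a summed level of 7569 to 11691 in WT fluoxetine and 8950 to 11125 in WT vehicle, and 1 of 8 oligodendrocyte precursor and 1 of 9 pericyte genes. None of the 12 oligodendrocyte, 12 astrocyte, 10 microglia or 9 excitatory neuron markers was called in WT fluoxetine. The oligodendrocyte markers summed to 82983 to 216651 in WT fluoxetine and to 103959 to 198609 in WT vehicle, and no marker was at 0. Interneuron markers summed to 19751 to 25566 in WT fluoxetine and 20892 to 29672 in WT vehicle, and meningeal ones to 4572 to 7244 and 4490 to 8175. Olfactory bulb and immature neuron markers varied widely between libraries, with sums of 3365 to 12733 in WT fluoxetine and 2927 to 22044 in WT vehicle. The part of RNA from endothelial or other cells in the result was not tested.

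In Het mice the fluoxetine pattern was mixed before the GC correction. In that fit 15 of the 29 genes were called lower and 4 higher, which is 51.7% and 13.8%, against 19.9% and 19.1% of all tested genes; calls in either direction made up 39% of all genes. The share called higher is thus close to the background. The 15 genes were 4 of 8 mevalonate enzymes, 2 of 3 squalene enzymes, 4 of 9 sterol ring enzymes, 4 of 6 regulators and 1 of 3 transport genes. The median log2 fold over the 29 genes was -0.12, and 23 lay below 0, when 49.2% of all genes did.

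The genes with the largest falls in Het fluoxetine before the GC correction were Mvd, Mvk, Ebp and Srebf2. Mvd ran from 389.3 to 483.7 with a median of 435.7 in Het fluoxetine, against 538.5 to 660.7 with a median of 595.3 in Het vehicle, with a log2 fold of -0.46, that is 72.6% of vehicle (SE 0.064, adjusted p = 2.36e-07). Srebf2 ran from 5492 to 6183 with a median of 5824 in Het fluoxetine, against 6567 to 7500 with a median of 7087 in Het vehicle. Dhcr7 ran from 801.4 to 946.8 with a median of 902.7 in Het fluoxetine, against 963.1 to 1148 with a median of 1074 in Het vehicle. In these 3 genes no Het fluoxetine value reached the Het vehicle range, a pattern seen in 2.4% of tested genes. Part of such falls goes with GC content: Mvd, Mvk and Srebf2 had 59.0%, 56.3% and 57.9%. All tested genes from 56% to under 60% GC had a median log2 fold of -0.178 in this contrast, and 50.2% were called lower. Ebp had 50.9%, and genes from 48% to under 52% had a median of 0. After the GC correction Mvd, Mvk, Ebp, Srebf2 and Dhcr7 were still called lower.

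Mvk, which phosphorylates mevalonate, had values of 368.5 to 481.7 with a median of 410.2 in Het fluoxetine, against 419.2 to 645.8 with a median of 533.3 in Het vehicle, and was at a log2 fold of -0.35 (SE 0.066, adjusted p = 4.12e-05). Ebp had values of 290.3 to 393.8 with a median of 351.2 in Het fluoxetine, against 382.0 to 447.9 with a median of 431.4 in Het vehicle. All 10 Het fluoxetine libraries lay below the Het vehicle mean of their sex in both. Fdps was at -0.27, Tm7sf2 at -0.25, Scap at -0.23, Fdft1 at -0.20, Acat2 at -0.17, Stard4 at -0.14, Nsdhl at -0.13, and Sqle and Insig1 each at -0.12, all called lower. Srebf1 was called at -0.28 with an adjusted p of 0.0471, and it kept that call in 5 of the 20 fits that left out 1 library of the groups compared.

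The 4 genes called higher in Het fluoxetine were Abca1, Ggps1, Mbtps1 and Insig2. Abca1 ran from 1051 to 1770 with a median of 1337 in Het fluoxetine, against 780.4 to 1355 with a median of 1127 in Het vehicle, a log2 fold of 0.31 (SE 0.11, adjusted p = 0.0232). Ggps1 was at 0.24 (SE 0.059, adjusted p = 0.00139), Mbtps1 at 0.11 and Insig2 at 0.09. After the GC correction Mbtps1, at 0.12 (adjusted p = 0.0179), was the 1 gene still called higher. Idi1 and Hmgcs1, both called lower in WT fluoxetine, were at -0.05 (adjusted p = 0.614) and -0.13 (adjusted p = 0.128) in Het fluoxetine.

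With the GC correction, the Het fluoxetine calls ran along the whole pathway. After it 19 of the 29 genes were called lower and 1 higher, against 10.4% and 9.18% of all tested genes, and 8 of 9 sterol ring enzymes were among the 19. Idi1 then stood at -0.19 (adjusted p = 0.0037), Hmgcs1 at -0.25 (adjusted p = 0.00121), Msmo1 at -0.20, Sc5d at -0.16, Hsd17b7 at -0.14 and Cyp51 at -0.14, all called. Scap, at -0.03, and Srebf1, at -0.09, were no longer called, and Srebf2 was at -0.11 (adjusted p = 0.00905).

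The genes called lower by fluoxetine in the 2 genotypes, each against its own vehicle libraries, overlapped in part. Without the correction 9 genes were called lower in both, Acat2, Mvd, Fdps, Sqle, Nsdhl, Ebp, Dhcr7, Srebf2 and Stard4, which is 60% of the 15 Het genes and 52.9% of the 17 WT genes. With the GC correction 17 were shared, 89.5% of each list of 19, when 10.4% of all genes were called lower in Het and 7.82% in WT. Fdft1 and Tm7sf2 were then called in Het alone and Pmvk and Insig2 in WT alone.

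With the library term, none of the 29 genes was called by limma for fluoxetine in Het mice, where 0.275% of all genes were. The unadjusted limma p was below 0.05 for 15 of the 29 and for 1624 of all 17810 tested genes. The term's set holds 9 of the 10 Het fluoxetine libraries, so only the other Het fluoxetine library and the WT vehicle library in the set separate the drug from the term. The SE of Idi1 was 0.121, against 0.068 without the term. With the term 22 of the 29 log2 folds lay below 0, with a median of -0.20, when 50.6% of all genes did. The 29 genes are not independent replicates. The Het fluoxetine library outside the set, male replicate 1, had an enzyme median of -0.254, the lowest of its group by little, as male replicate 5 was at -0.245. The folds with the term rest largely on that 1 library and the WT vehicle one, so its enzyme median is no separate observation. With the term Idi1 was at -0.32, Msmo1 at -0.35 and Mvd at -0.33. Scap, Srebf1 and Ggps1 changed sign, to 0.08, 0.13 and -0.10. edgeR without the term called 15 lower and 3 higher, against 20.8% and 18.1% of all genes, and leaving out 1 library at a time gave 16 to 19 calls.

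Markers of other cells also moved in Het fluoxetine, when 19.9% of all genes were called lower and 19.1% higher. Of 10 endothelial markers 6 were called lower, and their sum was 7856 to 9852 in Het fluoxetine and 8638 to 13472 in Het vehicle. Of 9 excitatory neuron markers 4 were called lower, with sums of 144640 to 200962 in Het fluoxetine and 160663 to 252365 in Het vehicle, while none of 12 oligodendrocyte markers was called, with sums of 83171 to 193316 in Het fluoxetine and 59725 to 195517 in Het vehicle. Oligodendrocyte precursor markers had 2 lower and 2 higher of 8, interneuron markers 2 lower and 1 higher of 7, astrocyte markers 2 lower of 12, pericyte markers 1 lower of 9, and meningeal markers 2 higher of 8. No marker was at 0. Olfactory bulb and immature neuron markers varied widely, with sums of 3335 to 20280 in Het fluoxetine and 2810 to 19742 in Het vehicle. The part of all these cells in the result was not tested.

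**Figure D3:**
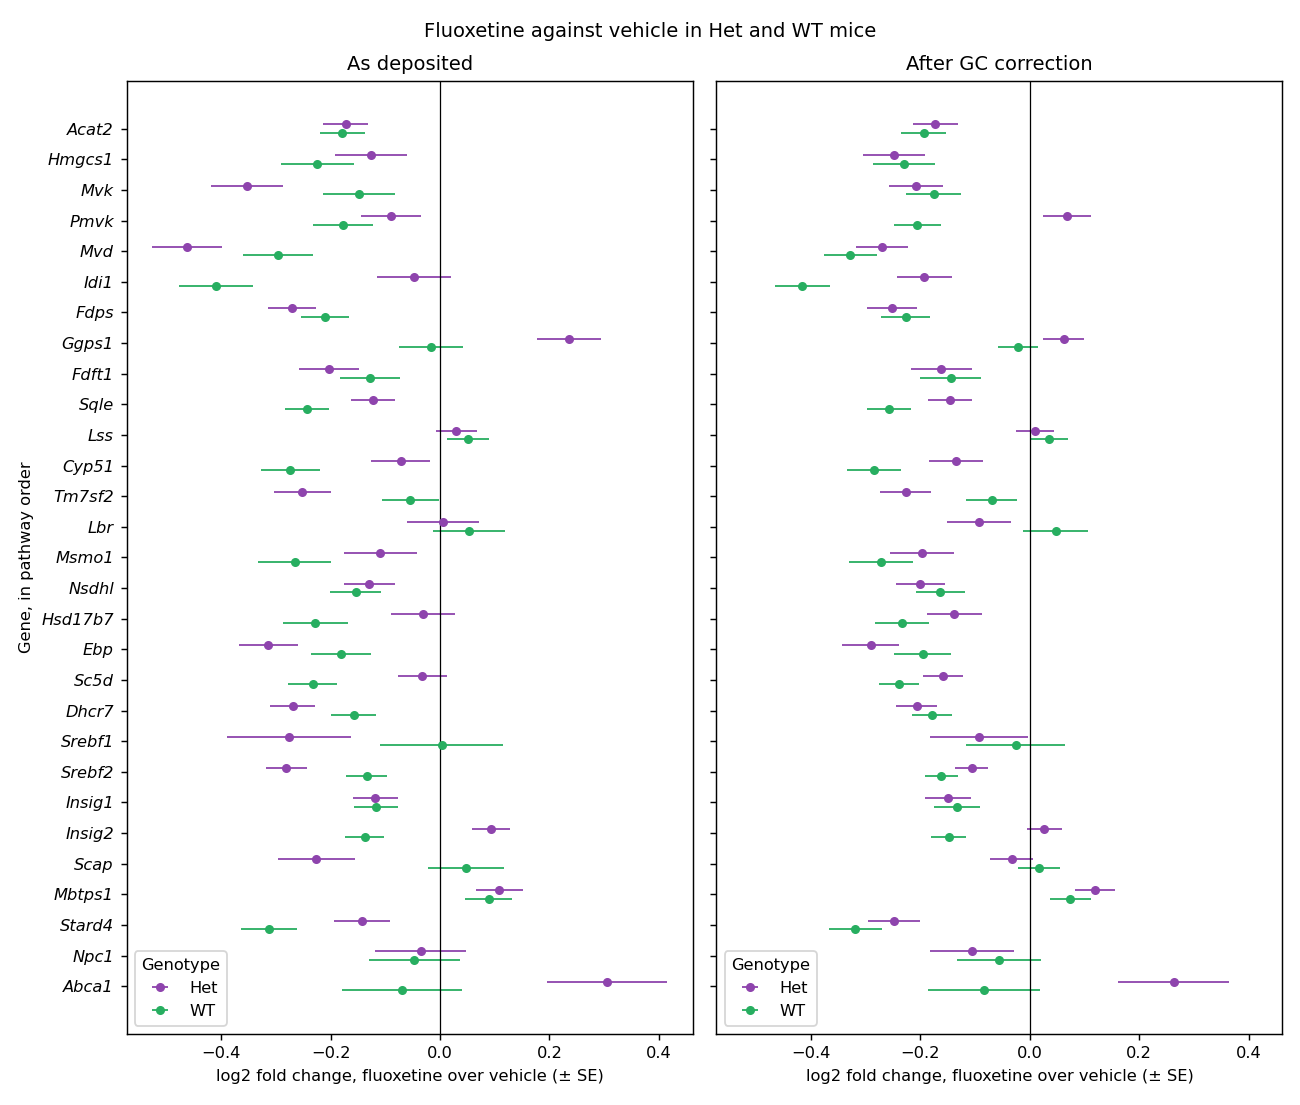
Log2 folds of the 29 genes for fluoxetine against vehicle, in Het and in WT mice, in pathway order, with bars of 1 SE, as fitted and after the GC correction. In WT the values stay nearly in place with the correction (Idi1 at -0.41 and -0.42), while in Het they move: Idi1 is at -0.05 and -0.19, and Scap at -0.23 and -0.03.

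Set directly against each other, Het and WT mice on fluoxetine differed in 15 of the 29 genes before the GC correction and in 2 after it. The 15 were 9 lower and 6 higher in Het, 31% and 20.7% of the genes, against 19.9% and 19.6% of all tested genes, with 39.5% of genes called in either direction. Lower in Het were Mvk at -0.28, Mvd at -0.26, Fdft1 at -0.13, Tm7sf2 at -0.14, Ebp at -0.18, Dhcr7 at -0.18, Srebf1 at -0.39, Srebf2 at -0.18 and Scap at -0.29. Higher in Het were Idi1 at 0.25, Ggps1 at 0.28, Sc5d at 0.19, Insig2 at 0.17, Stard4 at 0.13 and Abca1 at 0.28. The share called higher was close to the background.

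The sign of these differences followed the GC content of the transcripts. The 6 genes higher in Het had a GC content of 40.1% to 47.5%, and the 9 lower had 50.9% to 59.1%, so that the sets did not overlap. Over all tested genes the same contrast had a median log2 fold of 0.26 in the 1286 genes under 40% GC and of -0.28 in the 770 genes at 60% or more. After the correction these medians were 0.03 and 0.01. Of the 29 genes, 2 were then called, both higher in Het: Pmvk at 0.18 (adjusted p = 0.00363) and Insig2 at 0.10 (adjusted p = 0.0236), when 8.86% of all genes were called higher. With the library term limma called none, with 0 at an unadjusted p below 0.05, and 0.0393% of all genes.

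**Figure D4:**
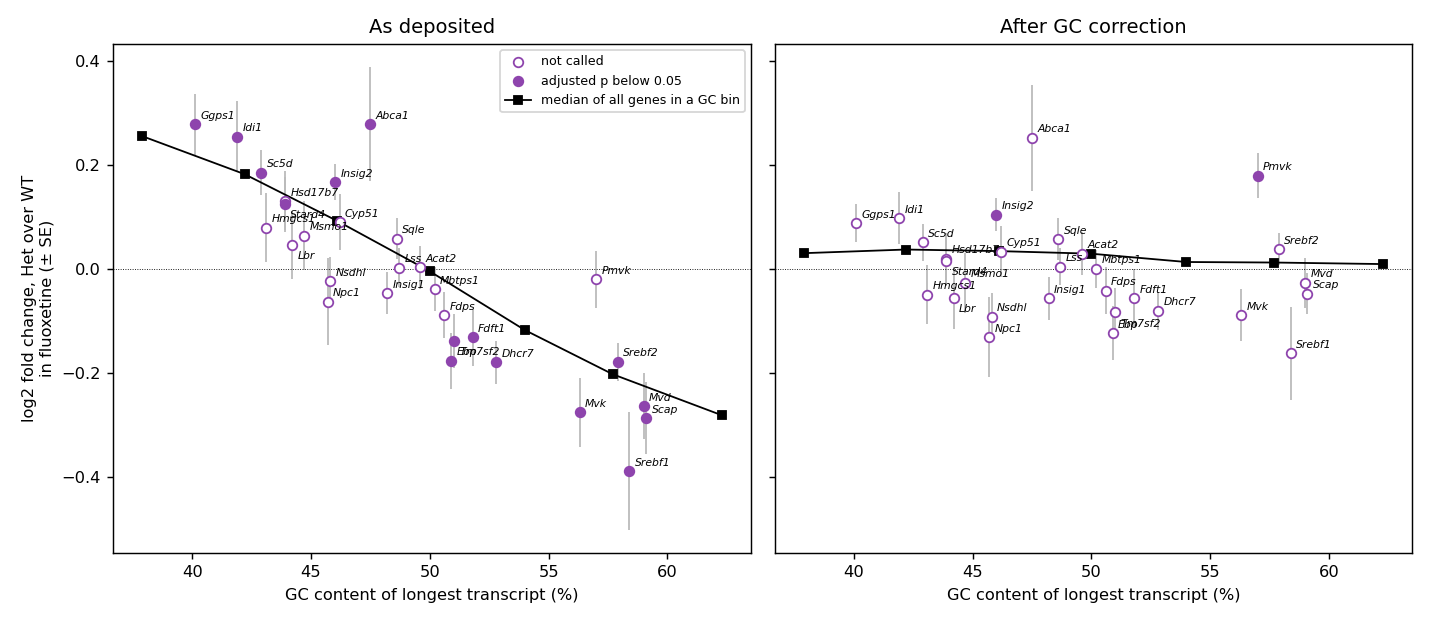
Log2 fold of each of the 29 genes for Het against WT mice on fluoxetine (vertical axis) by the GC content of its longest transcript in percent (horizontal axis), as fitted and after the GC correction. As fitted, genes from 40.1% to 47.5% GC include the 6 called higher and those from 50.9% to 59.1% the 9 called lower; after the correction 2 genes are called.

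Whether the fluoxetine response itself differed between genotypes was tested as an interaction, the Het log2 fold minus the WT one. Of the 29 genes 8 were called, 27.6%, against 24% of all tested genes (11.9% higher and 12% lower), so their share was near the background. Idi1 (0.36, adjusted p = 0.00572), Insig2 (0.23, adjusted p = 0.00106), Ggps1 (0.25), Cyp51 (0.20) and Sc5d (0.20) were positive, and Tm7sf2 (-0.20), Srebf2 (-0.15) and Scap (-0.27) negative. After the GC correction 3 were called, when 7.46% of all genes were: Pmvk at 0.27 (adjusted p = 0.00347), Idi1 at 0.22 (adjusted p = 0.04) and Insig2 at 0.17 (adjusted p = 0.0122). Insig2 was called lower in WT fluoxetine and, before the correction, higher in Het fluoxetine, and its log2 folds after the correction were 0.03 in Het and -0.15 in WT. With the library term limma called none of the 29, with 2 at an unadjusted p below 0.05, and 0.0449% of all genes. Leaving out 1 library at a time gave 4 to 10 calls, with 4 without WT vehicle female replicate 2 and 5 without either WT fluoxetine female replicate 4 or WT fluoxetine male replicate 1.

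In WT mice given lithium, genes of the mevalonate arm and the sterol ring fell. Of the 29 genes 9 were called lower and 0 higher, 31%, against 9.87% of all genes called lower, 9.34% higher and 19.2% in either direction. The median log2 fold was -0.10, with 24 genes below 0, when 49.0% of all genes lay below 0. The called genes were 4 of 8 mevalonate enzymes (Mvk, Pmvk, Mvd and Idi1), 4 of 9 sterol ring enzymes (Cyp51, Tm7sf2, Ebp and Dhcr7) and Srebf2.

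Pmvk, the kinase that acts after Mvk, had the smallest adjusted p of the 29 genes in WT lithium. It lies on chromosome 3 at 89454541 to 89469013 and ran from 497.0 to 775.7 with a median of 750.6 in WT lithium, against 793.7 to 989.4 with a median of 875.7 in WT vehicle, and its log2 fold was -0.31 (SE 0.055, adjusted p = 9.25e-05). No lithium value reached the vehicle range, which in 0.124% of tested genes was so. Idi1 ran from 1355 to 2409 with a median of 1648 in WT lithium, against 1754 to 2777 with a median of 1983 in WT vehicle (log2 fold -0.27, SE 0.068, adjusted p = 0.00359). Mvd, at -0.26, had its lowest value, 341.8, in WT lithium male replicate 5, and the other 9 WT lithium libraries lay between 479.1 and 610.6. Mvk was at -0.23, Tm7sf2 and Cyp51 each at -0.19, Ebp at -0.16, Srebf2 at -0.13 and Dhcr7 at -0.12, the last called in 9 of the 20 fits that left out 1 library of these groups.

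The squalene enzymes were not called in WT lithium, with Fdft1 at -0.12 (adjusted p = 0.108), Sqle at -0.07 (adjusted p = 0.197) and Lss at 0.09 (adjusted p = 0.0736). Stard4, at -0.06 (adjusted p = 0.434), was not called either. Fitted on the compared groups alone, only Mvd and Pmvk passed; the GC correction gave 10 calls, when 9.59% of all genes were called lower, losing Dhcr7 and Srebf2 (-0.06, adjusted p = 0.209) and gaining Hmgcs1, Msmo1 and Sc5d. Without the 3 libraries of largest residuals 8 genes passed, and leaving out 1 library at a time gave 7 to 10.

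Markers of several other cell types fell with lithium in WT mice, when 9.87% of all genes were called lower. Called lower were 8 of 10 microglia markers, with sums of 8048 to 11227 in WT lithium and 10951 to 13032 in WT vehicle, and 8 of 10 endothelial markers, with sums of 6954 to 9266 in WT lithium and 8950 to 11125 in WT vehicle. So were 8 of 9 pericyte markers, with sums of 4520 to 8680 in WT lithium and 8042 to 9535 in WT vehicle, and 7 of 8 meningeal, 6 of 12 astrocyte and 4 of 8 oligodendrocyte precursor markers. Of 12 oligodendrocyte and 9 excitatory neuron markers none was called. The oligodendrocyte sums were 73589 to 194019 with a median of 124486 in WT lithium, and 103959 to 198609 with a median of 168948 in WT vehicle. Their median was thus lower with lithium, though no marker was called. No marker was at 0. Olfactory bulb and immature neuron markers varied widely, with sums of 3892 to 14409 in WT lithium and 2927 to 22044 in WT vehicle. The part of all these cells in the changes of the sterol genes was not tested.

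In Het mice, limma called none of the 29 genes for lithium, with 4 at an unadjusted p below 0.05, edgeR called none, and 0.983% of all genes were called. The log2 folds had a median of -0.05, with 24 below 0, when 50.7% of all genes lay below 0. Idi1 ran from 1482 to 1904 with a median of 1673 in Het lithium, against 1715 to 2100 with a median of 1862 in Het vehicle, and was at -0.16 (SE 0.068, adjusted p = 0.26). Tm7sf2 was at -0.17 (adjusted p = 0.106) and Lbr at -0.21 (adjusted p = 0.105); after the GC correction both passed, with adjusted p of 0.0384 and 0.0473, when 2.12% of all genes were called. The interaction of genotype with lithium called none of the 29 by limma or edgeR, with 2 at an unadjusted p below 0.05 and 0.0674% of all genes called, so a difference between the genotypes in the lithium response was not shown. Oligodendrocyte marker sums were 85693 to 141083 with a median of 102811 in Het lithium. In Het vehicle they were 59725 to 195517 with a median of 142161, and their part was not tested.

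No change of the pathway with genotype alone was called. In vehicle, limma and edgeR called none of the 29 genes between Het and WT mice, 1 had an unadjusted p below 0.05, and 0.59% of all genes were called. The log2 folds had a median of -0.06, and 25 of 29 lay below 0, when 51.3% of all genes did, with a median of -0.002. The 29 genes are not independent of each other. Hmgcs1 ran from 9928 to 14507 with a median of 10848 in Het vehicle, against 10117 to 13544 with a median of 10953 in WT vehicle, and Srebf2 from 6567 to 7500 with a median of 7087 in Het vehicle, against 6251 to 7884 with a median of 7259 in WT vehicle. The ranges of Hmgcs1 and Srebf2 overlapped almost wholly. Cyp51 was the gene with an unadjusted limma p below 0.05. Its values were 1806 to 2524 with a median of 2162 in Het vehicle. In WT vehicle they were 2137 to 2668 with a median of 2340. On lithium, limma and edgeR again called none, 2 had an unadjusted p below 0.05, and 0.0281% of all genes were called.

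**Figure D5:**
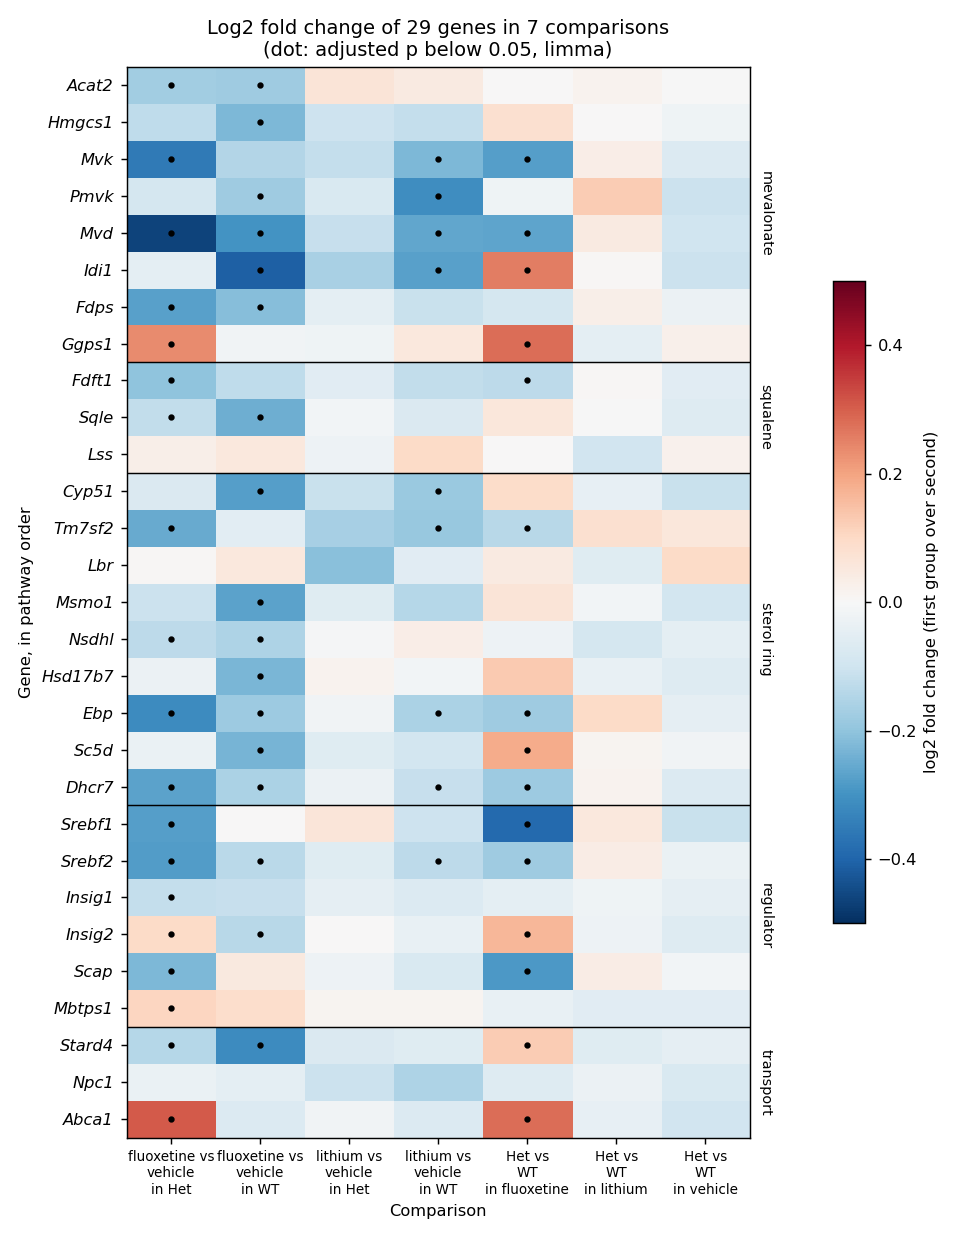
Log2 folds of the 29 genes (rows, in pathway order) in 7 comparisons (columns): fluoxetine against vehicle in Het and WT, lithium against vehicle in Het and WT, and Het against WT on fluoxetine, lithium and vehicle; the marks show calls at an adjusted p below 0.05 by limma. Both fluoxetine columns hold mostly falls, with 15 and 17 genes called lower, and the columns for Het against WT on lithium and vehicle hold no call.

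The drugs were also set against each other, with the same drug libraries as above. In WT mice 7 of the 29 genes were lower with fluoxetine than with lithium and 0 higher, 24.1%, against 7.14% of all genes called lower, 5.92% higher and 13.1% in either direction. Stard4 ran from 685.6 to 894.4 with a median of 767.1 in WT fluoxetine, against 749.8 to 1214 with a median of 898.5 in WT lithium (log2 fold -0.25, SE 0.051, adjusted p = 0.000918). Acat2 ran from 985.7 to 1230 with a median of 1117 in WT fluoxetine, against 1110 to 1680 with a median of 1321 in WT lithium (log2 fold -0.22, SE 0.041, adjusted p = 0.000354). Hsd17b7 at -0.22, Nsdhl at -0.19, Sqle at -0.17, Sc5d at -0.14 and Insig2 at -0.10 were the others. Fitted on the compared groups alone, only Acat2 and Stard4 passed. Idi1, at -0.14 (adjusted p = 0.174), Mvd, at -0.04 (adjusted p = 0.756), and Pmvk, at 0.13 (adjusted p = 0.0975), were not called. After the GC correction 7 genes were again called lower, against 8% of all genes called lower and 2.6% higher. Insig2 and Sc5d lost their calls, and Mvd, at -0.16 (adjusted p = 0.0279), and Srebf2, at -0.11 (adjusted p = 0.0152), gained one.

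In Het mice 12 of the 29 genes were lower and 4 higher with fluoxetine than with lithium, 41.4% and 13.8%, against 16.7% and 16.1% of all genes and 32.8% in either direction. Acat2 had values of 1033 to 1155 with a median of 1118 in Het fluoxetine, against 1234 to 1456 with a median of 1311 in Het lithium, and with Dhcr7 and Srebf2 it was 1 of 3 genes whose groups did not overlap, as in 1.35% of all genes. The higher genes were Abca1, Ggps1, Insig2 and Lbr. After the GC correction 9 were lower and 2 higher, against 6.65% and 5.42% of all genes. None of the 4 higher genes kept its call, and Srebf2, at -0.06 (adjusted p = 0.197), Mvk, Fdft1, Scap and Srebf1 also lost theirs. The 2 then higher were Mbtps1 at 0.11 and Pmvk, which changed sign to 0.13, and Hsd17b7 and Stard4 were newly lower. With the library term limma called none, and 0.0505% of all genes. Its unadjusted p was below 0.05 for 11 of the 29 and for 1153 of all 17810 tested genes.

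No difference between the sexes in the fluoxetine response was called. The interaction of sex with fluoxetine, the male log2 fold minus the female one, called none of the 29 genes in Het or in WT mice by limma or edgeR, with 1 and 0 at an unadjusted p below 0.05, and 0% of all genes. In WT mice Idi1 was at -0.38 in males and -0.44 in females, Stard4 at -0.24 in males and -0.39 in females, and Hsd17b7 at -0.15 in males and -0.31 in females. For lithium in WT mice 5 genes were called in the interaction, 17.2%, against 9.64% of all tested genes (4.83% higher and 4.81% lower): Ggps1 at 0.44, and Acat2, Mvd, Fdft1 and Scap at -0.26, -0.45, -0.36 and -0.45.

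The 5 genes differed in how the sexes moved. Mvd fell in males: its 5 values in WT lithium males were 576.4, 544.4, 550.7, 479.1 and 341.8, against 650.3, 702.0, 680.1, 775.9 and 633.2 in WT vehicle males, a log2 fold of -0.49. In females they were 598.6, 584.0, 568.5, 610.6 and 560.9 with lithium, against 555.2, 560.8, 605.8, 632.4 and 642.8 with vehicle, a log2 fold of -0.03. All lithium males lay below all vehicle males, and the female groups overlapped. How many of all genes did the same was not counted. For lithium in WT males, limma called 1827 of all 17810 tested genes lower. Fdft1 and Scap were each at -0.30 in males, and at 0.06 and 0.15 in females. Acat2 was higher in females, with 1427 ± 151 in WT lithium and 1262 ± 72.8 in WT vehicle females (SD, n = 5 each; log2 fold 0.17, limma adjusted p = 0.0397), and at -0.08 in males. Ggps1 was at 0.27 in males and -0.16 in females, and its highest values were 2134.6 in WT lithium male replicate 5 and 1924.6 in WT vehicle female replicate 2.

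The interaction calls depended on processing and on single libraries. No gene of the 29 passed in this interaction when the compared groups were fitted alone or without the 3 libraries of largest residuals. It was the same after the GC correction, when 0.0393% of all genes were called, and with the library term, when 1.57% were. After the GC correction 8 of the 29 had an unadjusted limma p below 0.05, against 2608 of all 17810 tested genes. With the library term 8 of the 29 also did, against 4387 of all tested genes. None passed either without WT lithium female replicate 5, WT lithium male replicate 5 or WT vehicle female replicate 2, while 3, 2 and 1 passed without WT vehicle female replicate 1, male replicate 3 and male replicate 4. In Het mice the interaction of sex with lithium called none by limma or edgeR, none had an unadjusted p below 0.05, and 0% of all genes were called.

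Other genes of lipid metabolism were taken from 5 lists of 54 genes in all. In WT fluoxetine 9 of the 54 were called lower and 0 higher, with a median log2 fold of -0.06, when 4.08% of all genes were called lower and 4.35% higher. Of these 9, 7 belonged to the 13 fatty acid synthesis genes, all 13 of which lay below 0, with a median of -0.17. Elovl6, a fatty acid elongase, was at -0.34 (SE 0.056, adjusted p = 2.95e-05), Mid1ip1, an activator of acetyl-CoA carboxylase, at -0.21, Acaca, that carboxylase, at -0.17, and Acly, which makes cytosolic acetyl-CoA, at -0.16. Of 10 genes of LXR, efflux and turnover 1 was called, Soat1, which esterifies cholesterol, at -0.22, and of 10 genes of sterol uptake and transport 1, the lipoprotein receptor gene Vldlr, at -0.10. None of 14 genes of the isoprenoid branches and none of 7 of SREBP processing was called in that fit.

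In Het fluoxetine 17 of the 54 genes were called lower and 7 higher, with a median of -0.03, when 19.9% of all genes were called lower and 19.1% higher. The 4 called lower among 10 LXR, efflux and turnover genes were Nr1h2 and Nr1h3, which encode the LXRs, at -0.28 each, the neuronal cholesterol hydroxylase Cyp46a1 at -0.25 and the transporter Abcg4 at -0.20, and none of the 4 passed after the GC correction, with adjusted p from 0.104 to 0.7. Fatty acid synthesis had 4 lower and 1 higher of 13, with Fasn, the fatty acid synthase, at -0.34 and Mid1ip1 at -0.31, and after the correction these were at -0.16 each, with adjusted p of 0.00362 and 0.00309. In WT lithium 10 of the 54 were lower and 4 higher, when 9.87% of all genes were called lower and 9.34% higher, with 5 of the lower ones in fatty acid synthesis: the desaturase genes Fads2 at -0.20 and Fads1 at -0.15, Mid1ip1 at -0.19 and the elongase gene Elovl5 at -0.22 had the smallest p.

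Several of the 29 genes overlap another gene of the table, and no source used here says if reads were counted by strand. Ggps1, Fdft1, Cyp51, Lbr, Srebf1, Insig2 and Npc1 overlap a gene on the opposite strand, and Tm7sf2 and Srebf2 a gene on the same strand, so a part of their reads could belong to the partner. The values of these 9 genes are uncertain to that extent.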

How the data were processed

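mRNA libraries were made with a stranded kit, per the labels' protocols, and sequenced. The submitters' processing notes list DESeq2 1.19.11, Salmon 0.11.2, R 3.6.0 and the GRCm38 build, without roles. The deposited signal per gene, called a normalised read count, is a read count that the authors had scaled by a size factor of its library, as whole reads came back for 100% of values (within 0.001 of a whole number). The recovered totals were 23901635 to 37769417 reads, median 28645091.

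Deposited values were turned into log2(value + 1) and tested with limma 3.58.1 (R 4.3.3; trend, robust) in 17810 genes that reached 10 in 5 libraries or more. A model of 12 group means had 48 residual degrees of freedom, contrasts averaged the sexes, and p-values were Benjamini-Hochberg adjusted over all genes. Alternatives were no filter, trimmed mean of M values factors, a pseudocount of 5, the compared groups alone, the replicate number as a block, edgeR 4.0.16 on the recovered reads (17776 genes), a GC correction (loess of each library's deviations on the GC content of the longest transcript, span 0.3, known for 99.9% of genes), leaving out the 3 libraries of largest residuals (WT lithium male 5, WT lithium female 5, WT vehicle female 2), the library term, and each library left out in turn. The model was tested on simulated data.

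All 29 genes are named; of the other lists, at most the 4 called genes with the smallest p. The members and lists were chosen with earlier results of these data known. Gene names and GRCm38 positions came from GENCODE M21, which held 18077 of 18088 identifiers; promoters came from RefSeq. A few genes of the pathway are not reported here.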

Additional observations from a re-analysis of the deposited data

Results flagged for a closer look

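In 174 groups of 10 libraries, the gap between the highest or lowest library and its neighbour was set against Dixon's limit, which chance passes in about 1 in 20 groups. Most of the 23 values that passed came from a few libraries. WT lithium male replicate 5 stood apart low in Pmvk (497.0), Mvd (341.8) and Scap (1458.5) and high in Ggps1 (2134.6), Msmo1 (3359.7), Hsd17b7 (1029.8) and Insig2 (1333.7). WT vehicle female replicate 2 stood apart high in Hmgcs1 (13543.9), Idi1 (2776.5), Ggps1 (1924.6) and Msmo1 (3115.8) and low in Srebf2 (6251.4) and Scap (1876.3). WT fluoxetine female replicate 5 was high in Hmgcs1 (11981.4) and Msmo1 (2406.2) and low in Scap (2343.8). In the first 2 libraries the genes with high values have a GC content of 40.1% to 46.0%, and their correlations of deviation with GC content were -0.78 and -0.59.

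The other values that stood apart were Hmgcs1 in Het fluoxetine female replicate 4 (12781.6) and Het vehicle female replicate 2 (14506.8), Fdps (1498.7) and Tm7sf2 (609.3) in Het lithium female replicate 4, Ebp in WT vehicle male replicate 3 (505.3), Mbtps1 in WT lithium female replicate 5 (3073.0) and Npc1 in Het vehicle male replicate 4 (1164.6).

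The fluoxetine response differed between Het and WT mice by the interaction test, before the GC correction, in 8 genes: Idi1 (0.362), Ggps1 (0.252), Cyp51 (0.202), Sc5d (0.201) and Insig2 (0.231) above 0, and Tm7sf2 (-0.198), Srebf2 (-0.147) and Scap (-0.274) below 0. Of the 29 genes 27.6% were called, near the 24% of all genes; 3 were called after the GC correction and none with the library term, and Srebf2 changed sign under both. The WT lithium response differed between males and females in 5 genes: Ggps1 (0.437), Acat2 (-0.257), Mvd (-0.451), Fdft1 (-0.36) and Scap (-0.452), 17.2% of the 29 against 9.64% of all genes. None was called after the GC correction, when 0.0393% of all genes were, or with the library term, when 1.57% were. None was called either with the compared groups alone, without the 3 libraries of largest residuals, or without any 1 of those 3.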

How the results depend on the processing

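The 17 WT fluoxetine calls stayed within 1.5 times under every alternative run, and leaving out 1 library gave 14 to 18. The library term could change little there, as its set holds only WT vehicle female replicate 2 of the groups compared. In the other contrasts leaving out 1 library gave 16 to 19 calls for fluoxetine in Het, 7 to 10 for lithium in WT, 12 to 15 for Het against WT on fluoxetine, 5 to 9 and 11 to 16 for fluoxetine against lithium in WT and Het, 4 to 10 for genotype by fluoxetine, 0 to 6 for sex by lithium in WT, and 0 in the remaining 7.

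With the library term, calls fell to 0 for fluoxetine in Het, for Het against WT on fluoxetine and for fluoxetine against lithium in Het. They also fell to 0 for genotype by fluoxetine and for sex by lithium in WT. The term follows Het fluoxetine by construction, so the falls in comparisons that hold that group were largely fixed in advance. With the GC correction there were 2 calls for lithium in Het, 2 for Het against WT on fluoxetine, 3 for genotype by fluoxetine and 0 for sex by lithium in WT. With the compared groups alone there were 2 for lithium in WT, 2 for fluoxetine against lithium in WT and 0 for sex by lithium in WT. Without the 3 libraries of largest residuals there were 1 for lithium in Het and 0 for sex by lithium in WT. The cause of these moves was not tested.

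Signs changed with the library term as follows: for fluoxetine in Het, Ggps1 -0.1, Srebf1 0.128 and Scap 0.082; for Het against WT on fluoxetine, Idi1 -0.022, Ggps1 -0.058, Tm7sf2 0.015, Srebf1 0.015 and Scap 0.021; for fluoxetine against lithium in Het, Ggps1 -0.08, Lbr -0.025, Srebf1 0.069 and Scap 0.109; for genotype by fluoxetine, Ggps1 -0.122, Srebf2 0.029 and Scap 0.069. With the GC correction Srebf2 changed sign to 0.038 and Pmvk to 0.179 for Het against WT on fluoxetine, Pmvk to 0.13 for fluoxetine against lithium in Het, and Srebf2 to 0.056 for genotype by fluoxetine.

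The replicate numbers do not pair the libraries: same-numbered ones had a median correlation of deviations of -0.01 over 330 pairs, and 13 of 60 libraries were closest to their own number. With the replicate number as a block there were 17 calls for fluoxetine in WT, 18 in Het, 9 for lithium in WT and 6 for fluoxetine against lithium in WT. Members had 214 reads or more in every library; counting error forms part of the spread between libraries, and its share was not tested.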
